A study of Mus musculus with 12 samples.

Results

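Cytokine receptors through which helper T cells and other cells signal to B cells were followed across the 4 sorted populations of the mouse germinal centre (GC). The 10 genes were the receptor chains Il4ra, Il21r, Il2rg, Il9r, Il13ra1, Ifngr1, Ifngr2, Il10ra and Il6ra and the shared signalling chain Il6st. They were named by function, with earlier results of these data known. Each was read from its probe set with 1 gene symbol (the one with the highest mean over the arrays where a gene has several). Of the 10, 9 had such a probe set, 1 each, out of 19938 genes that had one on the array. Il2rg, the common gamma chain, had none and was not analysed here. Il13ra1 was below the median of the array on 12 of 12 arrays and was not tested, which left 8 members among the 11206 genes tested.

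The study asked how GC B cells of the light zone (LZ) differ from those of the dark zone (DZ), and cells of high affinity from those of low affinity. SwHEL B cells, whose transgenic receptor binds hen egg lysozyme, carried the CD45.1 marker and were given to C57BL/6J mice (CD45.2), which were then immunized with the lysozyme mutant HEL3x on sheep red blood cells. On day 10, donor GC cells from the spleen of female mice (CD45.1+, CD45.2-, IgG1+, CD38 low) were sorted by 2 surface proteins: LZ cells had much CD86 and little CXCR4, and DZ cells the reverse. The groups are LZ_high, LZ_low, DZ_high and DZ_low, each of 3 arrays; all share the receptor transgene, the hosts with their own lymphocytes, and the antigen. How affinity was gated is not given in the labels, and neither is the use of separate or pooled animals; p-values therefore speak only of array-to-array spread, part or all of which could be technical. Each group has 1 array with each of 3 description suffixes, taken here to mark a common batch and called matched sets 1 to 3.

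These receptors act by bringing JAK kinases together, which phosphorylate STAT factors that enter the nucleus. Interleukin 4 signals mainly through STAT6, and interleukin 21 and interleukin 10 mainly through STAT3. In the GC, follicular helper T cells supply interleukin 4 and interleukin 21 to B cells that present antigen to them in the light zone, and both cytokines support the GC response. The chain encoded by Il6st (gp130) carries the signal of interleukin 6 and its relatives once a specific chain such as that of Il6ra has bound the cytokine.

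Values are log2 RMA expression values, and differences are on that scale followed by their fitted standard error (SE), 3 arrays per group. Array medians lay between 5.57 and 5.72. The B cell and GC B cell markers that have a probe set of their own (10 of 13) were all above the filter. Their list mean lay between 10.19 and 10.26 in LZ_high and between 10.38 and 10.51 in LZ_low. In DZ_high it lay between 10.19 and 10.40 and in DZ_low between 10.32 and 10.48. High minus low affinity was below 0 for 10 of 10 in LZ (median -0.24) and 7 of 10 in DZ (median -0.135), and 0 passed. The part of this shift in the receptor differences was not tested. Of the T cell markers 7 of 11 were too dim to test, Cd3d, Cd3g and Cd4 among them, and of the macrophage markers 7 of 11, Csf1r and Adgre1 among them. The mean of the T cell markers lay between 4.65 and 4.94 in LZ_high, 4.70 and 5.72 in LZ_low, 4.94 and 5.01 in DZ_high and 4.72 and 5.22 in DZ_low. That of the macrophage markers lay between 4.91 and 5.26, 4.92 and 5.57, 5.11 and 5.22, and 4.95 and 5.10 in the same groups. The LZ_low array of set 3 was the highest of the 12 on both.

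The plot of the receptors by array shows Ifngr1 separating the zones, Ifngr2 doing so but for 1 pair of arrays, Il4ra following both zone and affinity, and Il6st crossing over between them.

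**Figure D1:**
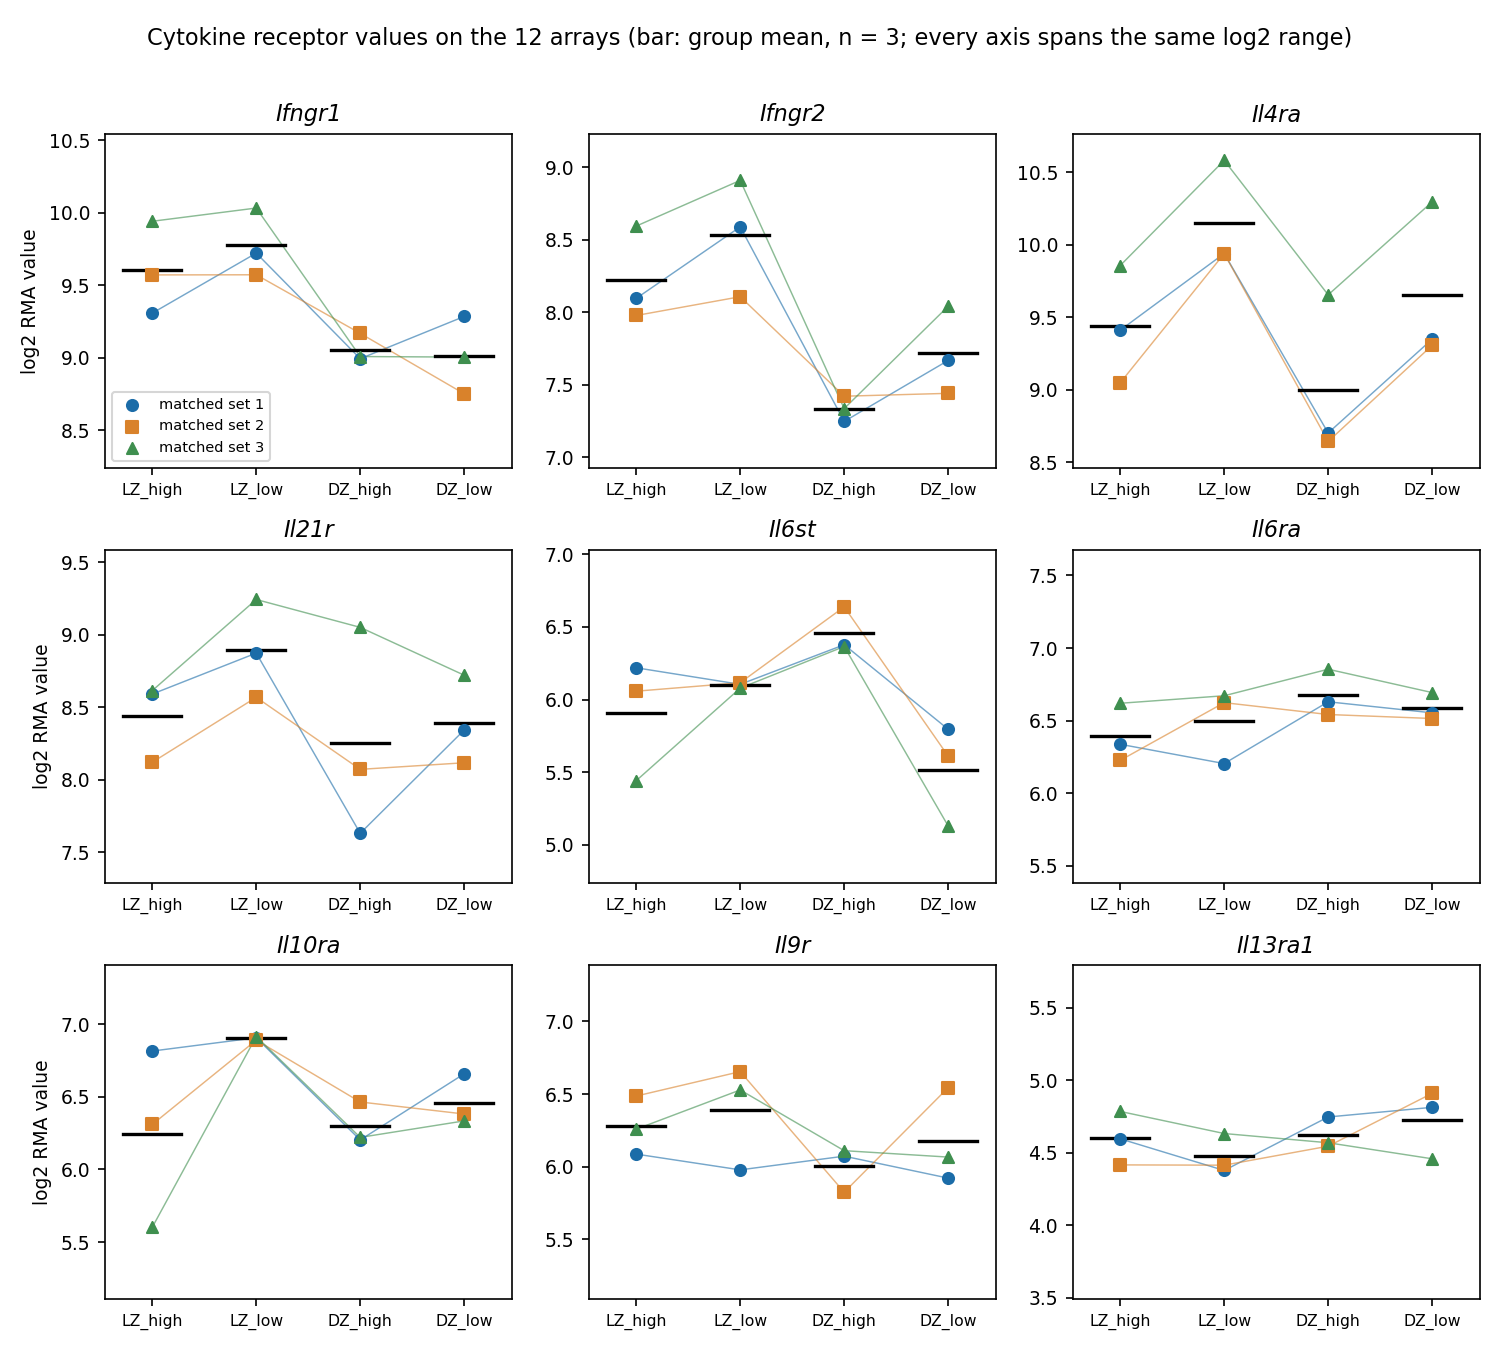
Log2 RMA values (vertical axis) of the 9 receptor genes with a probe set in the 4 groups (horizontal axis); each marker is 1 array, lines join arrays of a matched set, and bars are group means (n = 3). All 6 LZ arrays lie above all 6 DZ arrays for Ifngr1, and Il6st is highest in DZ_high and lowest in DZ_low.

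Both chains of the interferon gamma receptor had higher values in LZ cells. Ifngr1 encodes the chain that binds the cytokine and Ifngr2 the chain needed to start the signal. Ifngr1 was at 9.31, 9.57 and 9.94 in LZ_high and 9.72, 9.57 and 10.03 in LZ_low (sets 1, 2 and 3), against 8.99, 9.17 and 9.01 in DZ_high and 9.28, 8.75 and 9.0 in DZ_low. The lowest LZ array lay just above the highest DZ array, so the zones did not overlap. The LZ minus DZ difference was 0.66 ± 0.14 (95% interval 0.34 to 0.97; adjusted p = 0.0994 by limma), positive in 6 of 6 matched pairs of arrays. It did not pass the threshold of 0.05, with or without the replicate block. Every LZ array above every DZ array was found for 0.535% of the 11206 tested genes, and of the 8 members for Ifngr1 alone.

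Ifngr2 had the largest zone difference of the 8 tested members. It was at 8.10, 7.98 and 8.59 in LZ_high and 8.59, 8.11 and 8.91 in LZ_low, against 7.25, 7.42 and 7.34 in DZ_high and 7.67, 7.44 and 8.04 in DZ_low. The zones touched at 1 point, the DZ_low array of set 3 at 8.04 and the LZ_high array of set 2 at 7.98, and within each matched set the LZ array was higher at both affinities. The difference was 0.85 ± 0.17, or 1.81-fold (95% interval 0.48 to 1.22 on the log2 scale; adjusted p = 0.064 by limma). With the matched set as a replicate block it passed (adjusted p = 0.0124). The share of all tested genes called in LZ minus DZ was 0.419% (47 genes; 0 of the 8 members), and 1.2% with the replicate block (135 genes; Ifngr2 of the 8 members). At an unadjusted p below 0.05 it was 7.06%, and of the members Ifngr1 and Ifngr2.

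The zone difference of both chains was present at each affinity. For Ifngr2 it was 0.89 ± 0.24 at high and 0.82 ± 0.24 at low affinity, and for Ifngr1 0.55 ± 0.20 at high and 0.76 ± 0.20 at low affinity. At high affinity the differences in sets 1, 2 and 3 were 0.85, 0.56 and 1.26 for Ifngr2 and 0.31, 0.40 and 0.93 for Ifngr1. No member passed at either affinity, where 0.0357% of the tested genes were called in each (4 genes each). Without the LZ_low array of set 3 the differences were 0.59 for Ifngr1 (adjusted p = 0.2) and 0.76 for Ifngr2 (adjusted p = 0.135); the part that other cells on that array have in the result was not tested. In sorted populations measured in bulk, fewer cells that express a gene and less RNA per cell cannot be told apart.

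The promoters of both genes, 250 bases before to 50 after the RefSeq start, are shown because the values of the 2 chains went together; over the 12 arrays their values had a Pearson r of 0.884, and 0.881 with the mean of each matched set removed (a description of 12 arrays that share zones, sets and hybridization). Capitals mark matches to motifs searched on both strands: the GC box GGGCGG, the STAT sites TTC and GAA spaced by 3 bases (TTCNNNGAA) or by 4 bases, the octamer ATGCAAAT and the interferon-stimulated core, GAAA repeated after 2 bases. Sequences and positions are those of RefSeq, build GRCm38.p6, printed 5′ to 3′ on the strand of the gene. Ifngr1 lies at chr10:19591699-19591998 (plus strand) and Ifngr2 at chr16:91546809-91547108 (plus strand).
Ifngr1: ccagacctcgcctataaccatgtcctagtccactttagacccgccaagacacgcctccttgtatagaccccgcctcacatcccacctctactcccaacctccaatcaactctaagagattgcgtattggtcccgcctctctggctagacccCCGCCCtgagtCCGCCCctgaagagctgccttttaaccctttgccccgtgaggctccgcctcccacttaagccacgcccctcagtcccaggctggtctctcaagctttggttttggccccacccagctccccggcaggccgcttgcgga
Ifngr2: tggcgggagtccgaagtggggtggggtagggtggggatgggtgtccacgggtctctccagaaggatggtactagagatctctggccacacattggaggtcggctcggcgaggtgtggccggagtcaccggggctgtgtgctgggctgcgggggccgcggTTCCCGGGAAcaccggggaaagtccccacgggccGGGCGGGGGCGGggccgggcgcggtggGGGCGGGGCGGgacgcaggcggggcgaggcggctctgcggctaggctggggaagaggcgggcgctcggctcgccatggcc
The Ifngr2 window held a match to the STAT site with 4 spacer bases, at -91 to -82 from the start, and 4 GC boxes, of which the last 2 overlap by a base. The Ifngr1 window held 2 GC boxes on the opposite strand and no match to either STAT site. Of all 32851 promoter windows of this length, 6.95% held the STAT site with 4 spacer bases, 8.30% that with 3, 3.44% the interferon-stimulated core and 35.7% a GC box. A match is a description of letters, not of binding.

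Il4ra encodes the interleukin 4 receptor alpha chain, which pairs with the common gamma chain or, for interleukin 13, with the chain of Il13ra1. Its values followed both zone and affinity and were highest in LZ_low and lowest in DZ_high. They were 9.41, 9.05 and 9.86 in LZ_high and 9.94, 9.94 and 10.58 in LZ_low, against 8.70, 8.64 and 9.65 in DZ_high and 9.35, 9.31 and 10.30 in DZ_low. The array of set 3 was the highest in each group, so the groups overlapped across sets and not within them: in each set LZ was above DZ at the same affinity, and high affinity was below low affinity in the same zone.

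In LZ cells Il4ra was 0.71 lower at high than at low affinity (difference -0.71 ± 0.35, 95% interval -1.49 to 0.06), with -0.53, -0.89 and -0.72 in sets 1, 2 and 3. In DZ cells the difference was -0.65 ± 0.35, with -0.65, -0.66 and -0.64 in the 3 sets. The zone difference was 0.47 ± 0.25 (adjusted p = 0.834 by limma, 0.0701 with the replicate block), 0.44 at high and 0.50 at low affinity. None of these passed. The order of the 4 group means was LZ_low, DZ_low, LZ_high and DZ_high. No neighbours in that order differed by more than the larger of their SDs (0.37 in LZ_low, 0.56 in DZ_low, 0.40 in LZ_high and 0.57 in DZ_high, n = 3). These SDs take in the spread between matched sets, which the differences within sets leave out. Without the LZ_low array of set 3 the zone difference was 0.36 and the affinity difference in LZ -0.50; the affinity difference in DZ was -0.33 without the DZ_low array of set 3.

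Higher values in LZ in 6 of 6 matched pairs were found for 4.54% of tested genes and, of the 8 members, for Il4ra, Il9r, Ifngr1 and Ifngr2. Lower values at high affinity in 6 of 6 pairs were found for 4.08% of genes and for the members Il4ra and Ifngr2. Both patterns together held for 0.669% of genes and for the same 2 members. Ifngr2 was -0.31 ± 0.24 at high against low affinity in LZ and -0.38 ± 0.24 in DZ, with set 2 closest to 0 in both zones (-0.13 and -0.02). Without the LZ_low array of set 3 the LZ value was -0.13, and without the DZ_low array of set 3 the DZ value was -0.22.

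The Il4ra promoter lies at chr7:125552021-125552320 (plus strand, GRCm38.p6) and is shown because Il4ra, like Ifngr2, followed zone and affinity in every set. Capitals mark the same motifs.
Il4ra: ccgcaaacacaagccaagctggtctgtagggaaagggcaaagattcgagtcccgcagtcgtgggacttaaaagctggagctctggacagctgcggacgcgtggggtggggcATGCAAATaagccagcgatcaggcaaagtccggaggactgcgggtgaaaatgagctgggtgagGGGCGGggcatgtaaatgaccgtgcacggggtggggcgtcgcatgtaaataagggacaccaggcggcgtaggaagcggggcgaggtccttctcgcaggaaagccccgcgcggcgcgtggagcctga
It held the octamer ATGCAAAT, which binds the B cell POU factors, at -139 to -132 from the start, and 1 GC box. The octamer was found in 1.74% of all windows and in no other of the 9 member promoters.

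Il21r encodes the interleukin 21 receptor and on chromosome 7 is the protein-coding gene next to Il4ra. Its values were 8.59, 8.12 and 8.62 in LZ_high and 8.87, 8.57 and 9.24 in LZ_low, against 7.63, 8.07 and 9.05 in DZ_high and 8.34, 8.12 and 8.72 in DZ_low. LZ_low was the highest group in sets 1, 2 and 3, and DZ_high spread over the widest range, 7.63 to 9.05. The zone difference was 0.35 ± 0.23 (adjusted p = 0.965), positive in 5 of 6 pairs; the exception was high affinity in set 3, at -0.44. At low affinity it was 0.53, 0.45 and 0.52 in the 3 sets. In LZ cells high affinity was below low affinity in 3 of 3 sets (-0.45 ± 0.33), and the difference was -0.28 without the LZ_low array of set 3. The zone difference was 0.19 without the DZ_high array of set 1. Over 12 arrays Il21r and Il4ra had a Pearson r of 0.868, and 0.761 with set means removed.

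Il6st crossed over between zones and affinities. It was at 6.22, 6.06 and 5.44 in LZ_high and 6.10, 6.12 and 6.08 in LZ_low, against 6.38, 6.64 and 6.37 in DZ_high and 5.80, 5.61 and 5.13 in DZ_low. All DZ_high arrays lay above all arrays of the other 3 groups, and the DZ_low arrays lay below all LZ_low and DZ_high arrays. The share of all tested genes with such a separation was not counted. Averaged over the affinities, the zone difference was 0.02 ± 0.16.

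At high affinity Il6st was lower in LZ in 3 of 3 sets (-0.16, -0.58 and -0.92; fitted -0.55 ± 0.22), and at low affinity it was higher in LZ in 3 of 3 sets (0.31, 0.51 and 0.95; fitted 0.59 ± 0.22). Within the DZ, high-affinity cells had values 0.95 ± 0.22 above those of low affinity (1.93-fold; 0.58, 1.03 and 1.24 in the 3 sets), and in the LZ the difference was -0.19 ± 0.22. The interaction of zone and affinity was -1.14 ± 0.32 (95% interval -1.84 to -0.45; unadjusted p = 0.00393, adjusted p = 1 by limma). By unadjusted p, Il6st ranked 4 of the 11206 tested genes in the interaction and 11 in the DZ affinity difference. These ranks only describe a member that was chosen with earlier results of these data known. The adjusted p of the DZ difference was also 1.

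Limma called 0% of tested genes (0 genes) in the interaction and in the affinity difference in either zone. At an unadjusted p below 0.05 the share was 1.58% for the interaction (177 genes; of the members Il6st), 2.2% for high minus low affinity in DZ (247 genes; Il6st) and 4.16% for the same in LZ (466 genes; Il10ra). Opposite zone differences at the 2 affinities, each in 3 of 3 sets, were found for 2.21% of tested genes and for Il6st among the 8 members. The LZ_high array of set 3, at 5.44, was the farthest from its group; without it the difference at high affinity was -0.32 and the interaction -0.91, and the interaction was -0.78 without set 3 (a choice made after seeing the data). Plasma cell markers followed the same order in the DZ: their list mean (6 genes, 4 above the filter, with Prdm1 and Tnfrsf17 too dim) lay between 6.95 and 7.14 in DZ_high and between 6.50 and 6.78 in DZ_low, without overlap. In the LZ it lay between 6.54 and 6.99 in LZ_high and between 6.44 and 6.69 in LZ_low. Of this list Jchain was 0.51 and Irf4 0.61 higher at high than at low affinity in DZ, neither past the threshold. The part of plasma cell transcripts in the Il6st differences was not tested.

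Granulocyte markers also crossed over in the fitted differences. Of the 8 of 10 above the filter (Ly6g and Ltf were too dim), LZ minus DZ was below 0 for 8 of 8 at high affinity (median -0.43) and above 0 for 6 of 8 at low affinity (median 0.31). High minus low affinity in DZ was above 0 for 8 of 8 (median 0.37). The interaction was below 0 for 6 of 8 and above 0 for 2 (median -0.98), and 0 of the 8 passed in any contrast. The mean of the granulocyte list in sets 1, 2 and 3 was 5.37, 6.81 and 6.38 in DZ_high and 5.45, 6.24 and 5.52 in DZ_low, beside Il6st differences of 0.58, 1.03 and 1.24. In the same sets it was 5.26, 6.63 and 5.46 in LZ_high and 5.36, 6.43 and 6.55 in LZ_low. The list mean takes in the dim genes Ly6g and Ltf, and in set 1 it was slightly lower in LZ at both affinities. The interaction was also below 0 for 4 of 4 tested T cell markers (median -0.41). Their median high minus low affinity was -0.31 in LZ and 0.09 in DZ, beside -0.19 and 0.95 for Il6st. The same sign was found for 4 of 4 plasma cell, 3 of 4 macrophage and 7 of 10 B cell markers. The part of granulocytes, T cells and macrophages in the Il6st differences was not tested.

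The Il6st promoter lies at chr13:112463820-112464119 (plus strand, GRCm38.p6) and is shown as that of the member with the crossed pattern. Capitals mark the same motifs.
Il6st: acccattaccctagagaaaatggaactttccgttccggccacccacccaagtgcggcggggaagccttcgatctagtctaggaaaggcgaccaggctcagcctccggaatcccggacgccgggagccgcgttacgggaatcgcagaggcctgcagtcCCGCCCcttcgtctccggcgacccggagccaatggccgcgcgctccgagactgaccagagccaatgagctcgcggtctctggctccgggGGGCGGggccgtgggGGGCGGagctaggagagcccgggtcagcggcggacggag
It held 3 GC boxes, 1 of them across the start, and neither STAT site, as was the case for 8 of the 9 member promoters.

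The plot of zone differences by matched set places the crossed pattern of Il6st beside the other members.

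**Figure D2:**
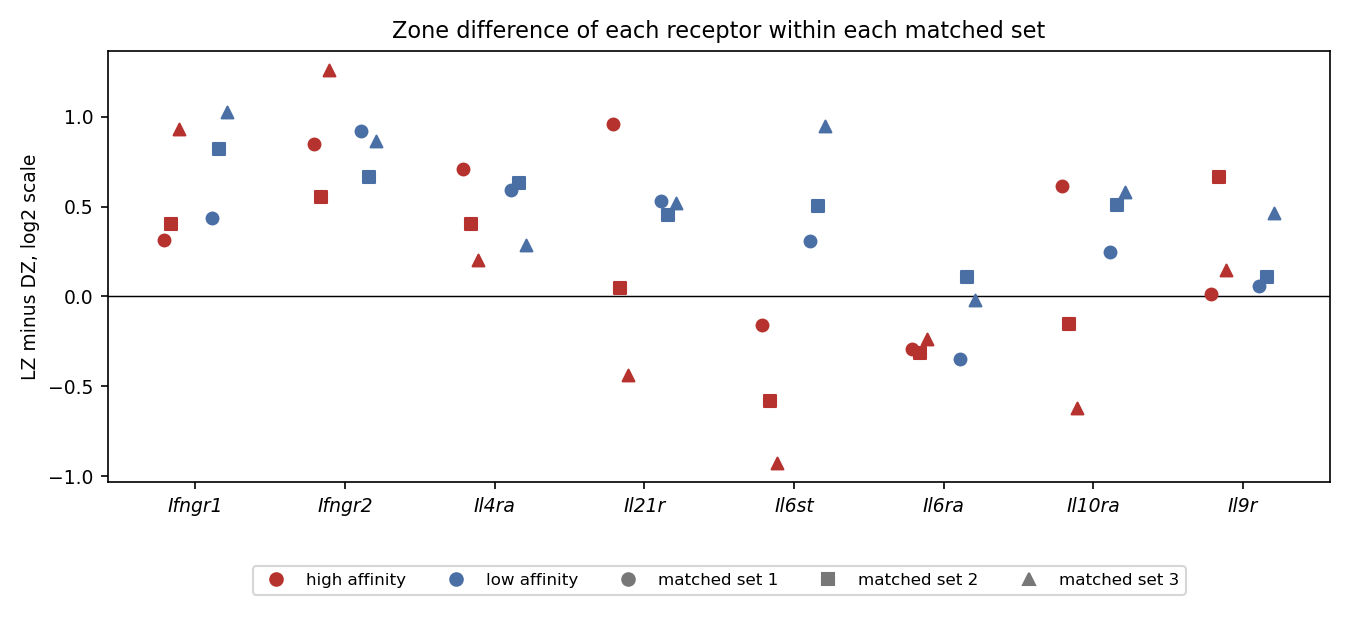
LZ minus DZ difference in log2 RMA value (vertical axis) of the 8 tested receptors (horizontal axis) within each matched set, at high affinity (red) and low affinity (blue). Il6st is below 0 at high and above 0 at low affinity in 3 of 3 sets, while Ifngr1, Ifngr2, Il4ra and Il9r are above 0 in 6 of 6 pairs.

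Il6ra, the interleukin 6 binding chain that uses the Il6st product, had values that overlapped between all groups. It was at 6.34, 6.23 and 6.62 in LZ_high and 6.20, 6.62 and 6.67 in LZ_low, against 6.63, 6.54 and 6.85 in DZ_high and 6.55, 6.51 and 6.69 in DZ_low. It was lower in LZ in 5 of 6 pairs, with a zone difference of -0.18 ± 0.12 (95% interval -0.45 to 0.08; adjusted p = 0.959). Unlike Il6st, its affinity differences were close to 0 in both zones, -0.11 ± 0.17 in LZ and 0.09 ± 0.17 in DZ, and a test between the 2 genes was not made.

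Il10ra, the ligand-binding chain for interleukin 10, was at 6.82, 6.31 and 5.60 in LZ_high and 6.91, 6.89 and 6.92 in LZ_low, against 6.20, 6.46 and 6.22 in DZ_high and 6.66, 6.38 and 6.33 in DZ_low. The 3 LZ_low arrays lay close together (SD 0.013) and above the other 9. The SD was 0.041 after quantile normalization and 0.072 after array median centring. The share of all tested genes with such a separation was not counted. High affinity was below low affinity in LZ by 0.66 (difference -0.66 ± 0.25; unadjusted p = 0.0231, adjusted p = 0.999), in 3 of 3 sets (-0.09, -0.58 and -1.31). The difference was -0.34 without the LZ_high array of set 3, which holds the largest of the 3 differences. In DZ the affinity difference was -0.16 ± 0.25.

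Il9r, which encodes the interleukin 9 receptor, was just above the array median on all 12 arrays. It was at 6.09, 6.49 and 6.26 in LZ_high and 5.98, 6.65 and 6.53 in LZ_low, against 6.07, 5.82 and 6.11 in DZ_high and 5.92, 6.54 and 6.07 in DZ_low. The groups overlapped. The zone difference was 0.24 ± 0.16 (adjusted p = 0.942), positive in 6 of 6 pairs, with differences as small as 0.01 and 0.06 in set 1. Its affinity differences were -0.11 ± 0.22 in LZ and -0.18 ± 0.22 in DZ.

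Il13ra1, the chain that lets Il4ra receive interleukin 13, stayed between 4.38 and 4.91 on all arrays, below the median of each. Group means were 4.60 ± 0.18 in LZ_high, 4.48 ± 0.14 in LZ_low, 4.62 ± 0.11 in DZ_high and 4.73 ± 0.24 in DZ_low (SD, n = 3), and no difference was tested.

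**Figure D3:**
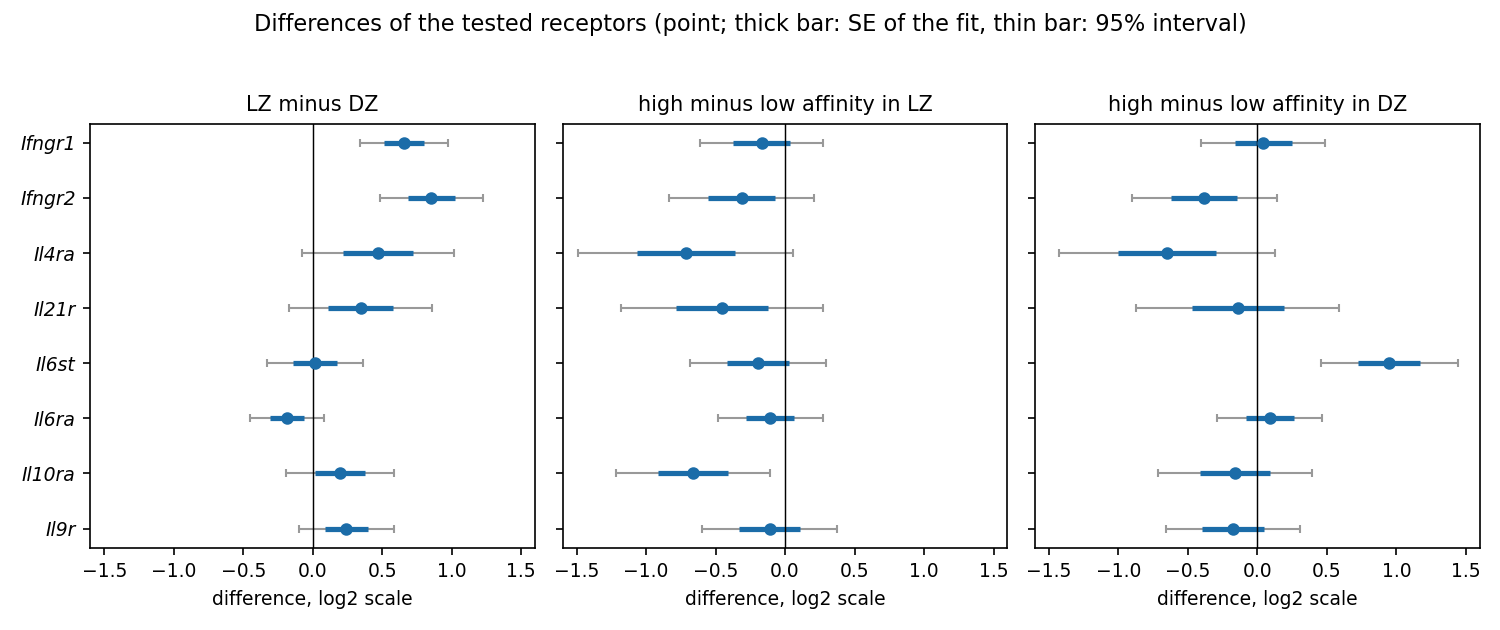
Fitted differences on the log2 scale (horizontal axis) of the 8 tested receptors for LZ minus DZ and for high minus low affinity in each zone; points are estimates, thick bars the SE and thin bars the 95% interval. The intervals of Ifngr1 and Ifngr2 in LZ minus DZ, of Il10ra in the LZ affinity difference and of Il6st in the DZ affinity difference leave out 0 before adjustment over all genes.

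The other genes of these pathways were counted in the same fit over all genes. Lists are described by the members that were tested, beside a median of about 0 over all 11206 genes in each contrast. None of 9 tested JAK kinases and STAT factors passed in any contrast, with or without the replicate block (median LZ minus DZ 0.04). Stat3, which carries interleukin 21 and interleukin 6 signals, was at 0.34 ± 0.11 in LZ minus DZ (adjusted p = 0.388), Stat2 at 0.38 ± 0.17 and Stat6, the interleukin 4 factor, at 0.28 ± 0.15. At high against low affinity in LZ, the kinase genes Jak1 and Tyk2 were at -0.28 ± 0.15 and -0.31 ± 0.26, and Stat3 at -0.18 ± 0.16. Jak3, the kinase of the common gamma chain, had no probe set with 1 symbol and was not analysed here.

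Of 13 tested inhibitors and phosphatases of cytokine signalling 0 passed (median LZ minus DZ 0.08). The phosphatase genes Ptpn2 and Ptpn6, whose products remove phosphate from JAK and STAT proteins or their receptors, were at 0.54 ± 0.15 (adjusted p = 0.238) and 0.43 ± 0.14 (adjusted p = 0.34, 0.0554 with the replicate block) in LZ minus DZ, each positive in 6 of 6 pairs. Ptpn1 was at 0.27 ± 0.15. Socs1 and Socs3, which are feedback inhibitors induced by STAT factors, were at 0.08 ± 0.14 and 0.10 ± 0.12. In the LZ affinity difference Socs4 was at -1.13 ± 0.76, Pias1 at -0.26 ± 0.19 and Ptpn11 at -0.35 ± 0.26; that of Socs4 was 0.12 without the LZ_high array of set 3.

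Of 18 tested receptors for other cytokines 0 passed (median LZ minus DZ 0.04). The 2 chains of the receptor for transforming growth factor beta differed in direction, with Tgfbr2 at 0.44 ± 0.13 (adjusted p = 0.272) and Tgfbr1 at -1.13 ± 0.40 (adjusted p = 0.447), each in 6 of 6 pairs. Without the LZ_high array of set 3, Tgfbr1 was at -0.68 and passed (adjusted p = 0.0265). Il10rb, the chain that pairs with that of Il10ra, was at 0.26 ± 0.11 in LZ minus DZ and at 0.34 ± 0.16 at high against low affinity in LZ. In the same contrast Tgfbr2 was at -0.38 ± 0.18 and the type I interferon receptor gene Ifnar2 at -1.27 ± 0.67; Ifnar2 was at -0.31 without the LZ_high array of set 3, and Tgfbr2 at -0.20 without the LZ_low array of set 3. Of 16 cytokine genes whose products bind the members, 4 were bright enough to test and 0 passed; Il4, Il21 and Ifng were too dim. Clcf1, a relative of interleukin 6, was at 0.35 ± 0.13 in LZ minus DZ, Il13 at 0.16 ± 0.12 and Ctf1 at 0.05 ± 0.13. At high against low affinity in LZ, Il27 was at 0.20 ± 0.18, Ctf1 at -0.20 ± 0.18 and Il13 at -0.05 ± 0.17.

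Of 11 tested interferon gamma targets 0 passed in any contrast, and 10 of 11 had a positive LZ minus DZ value (median 0.14). Irf9, a partner of STAT factors, was at 0.35 ± 0.13 (adjusted p = 0.501) and Ciita, the master regulator of MHC class II, at 0.40 ± 0.16 (adjusted p = 0.607), while Gbp3, a guanylate-binding protein gene, was at -0.38 ± 0.18. At high against low affinity in LZ, Ciita was at -0.68 ± 0.23, Irf9 at -0.32 ± 0.18 and Irf1, an interferon regulatory factor gene, at -0.46 ± 0.35, each negative in 3 of 3 sets. Irf1 was at -0.07 without the LZ_high array of set 3, and Irf9 at -0.16 without that of set 2. The adjusted p of these 3 was 0.999.

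Of 7 tested interleukin 4 and STAT6 targets 2 rose in LZ cells (median 0.47 over the list, which holds Il4ra itself). They were the IgE receptor gene Fcer2a (1.70 ± 0.13, adjusted p = 0.000353), and Cd86, a costimulatory ligand used for the sort (1.13 ± 0.11, adjusted p = 0.00138), whose rise the gate requires. The other sort gene, Cxcr4, was at -0.63 ± 0.18 (adjusted p = 0.272, 0.0449 with the replicate block). Bcl2l1, a survival gene, was at 0.70 ± 0.19 (adjusted p = 0.213). Fcer2a passed at high (1.85 ± 0.18) and at low affinity (1.54 ± 0.18), and Cd86 at high affinity (1.47 ± 0.15). Without LZ_low replicate 1, 2 or 3 or DZ_low replicate 1 or 2 the low-affinity call of Fcer2a was lost (adjusted p of up to 0.109). In fits of only the groups compared all 3 calls at 1 affinity were lost (adjusted p = 0.134 for Fcer2a and 0.178 for Cd86 at high affinity, 0.157 for Fcer2a at low affinity). That of Cd86 was also lost without set 3 in the fit with the replicate block (0.0863). Like Il4ra, Fcer2a had lower values at high affinity in both zones, -0.80 ± 0.18 in LZ (3 of 3 sets; adjusted p = 0.999) and -1.11 in DZ, and Cd86 was at -0.14 ± 0.15 in LZ.

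Of 7 tested interleukin 21 and STAT3 targets 1 rose in LZ cells (median 0.18): Batf, an AP-1 factor gene (0.81 ± 0.14, adjusted p = 0.0365). Its call was lost in 9 of 12 fits without 1 array, with values of 0.71 to 0.89 (adjusted p of up to 0.106), and also after array median centring (0.0556) and with a trended robust prior (0.0605). Irf4, a plasma cell and GC regulator gene, was at 0.74 ± 0.21 (adjusted p = 0.25), and Pim1, a kinase gene, at -0.38 ± 0.21. At high against low affinity in LZ, Batf was at 0.56 ± 0.20, Irf4 at 0.56 ± 0.29 and the survival gene Mcl1 at -0.29 ± 0.20. Il21r, which is itself on this list, was at -0.45 in the same contrast, opposite in sign to Batf and Irf4.

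**Figure D4:**
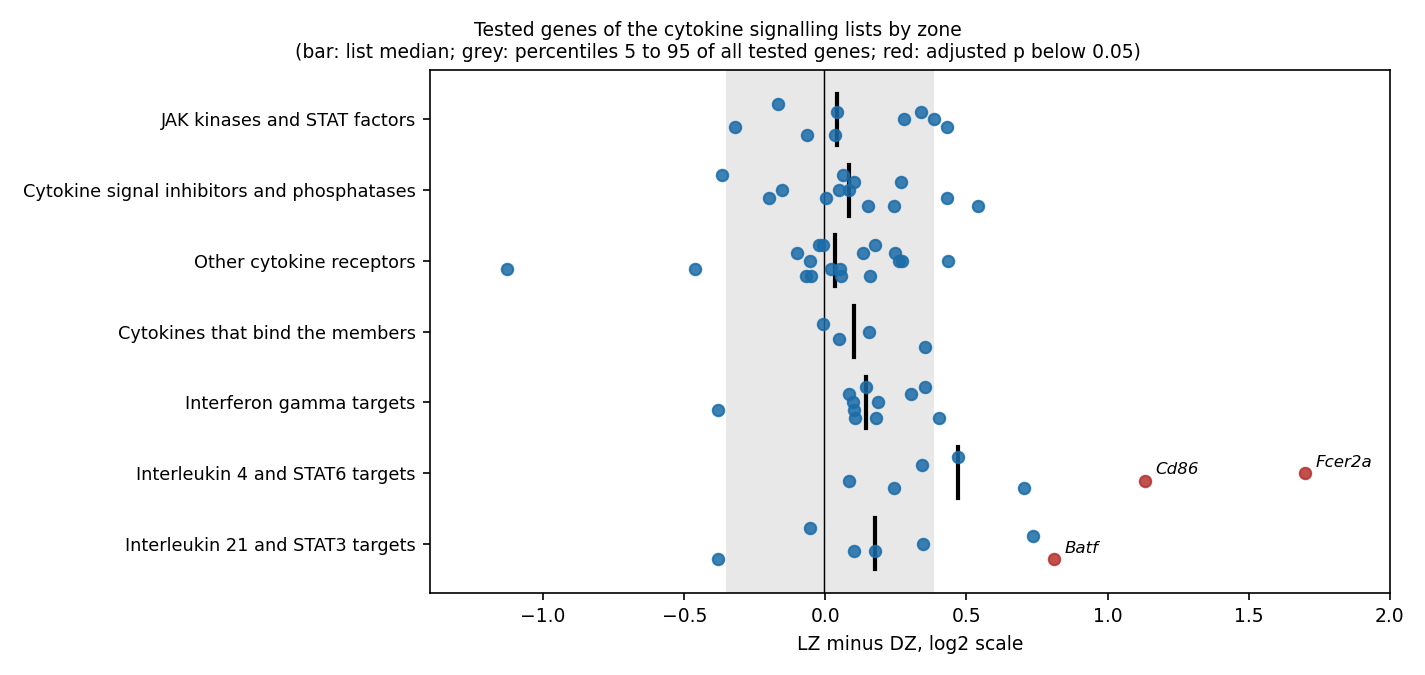
LZ minus DZ difference on the log2 scale (horizontal axis) of the tested genes of the 7 cytokine signalling lists (rows); each point is a gene, vertical bars are list medians, and grey spans percentiles 5 to 95 of all 11206 tested genes (-0.35 to 0.38). Fcer2a, Cd86 and Batf (red) are the genes with an adjusted p below 0.05.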

How the data were processed

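RNA of 12 sorted GC B cell samples was amplified, labelled with biotin and hybridized to 1-colour arrays. The authors deposited 1 column of RMA values a sample, on a log2 scale as read from the range (1.99 to 13.74); the submitters' processing notes give RMA and, with no role, mm8. Detection p-values and scanner files were not used here. The number of arrays limits the precision. Probe sets were named from the platform annotation: of 28853, 21789 had 1 symbol, 1621 several and 5443 none. Genes entered the tests if 3 or more of the 12 arrays reached their own array's median; 8732 were too dim. Promoters came from RefSeq (9 of 10 members; Il10ra was not matched).

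One limma model (version 3.58.1, R 4.3.3) with a mean per group took in the 12 arrays. The 6 contrasts were tested two-sided after eBayes, with Benjamini-Hochberg adjustment over all tested genes and a threshold of 0.05. The fit was also run on simulated arrays without matched-set effects, which cannot show how the sets bear on the calls. The matched sets pair arrays by the suffix of the descriptions, which has the form of a date. With group means removed, 17 of 18 same-set pairs of arrays correlated above 0.1 (0.41 at the median and -0.07 at the least), and for 11 of 12 arrays the closest other array shared the set. Named genes are the members, the sort genes, called genes of the 7 lists, the 3 genes of each list with the smallest p in LZ minus DZ and in high minus low affinity in LZ, and the 3 genes most like each member. Socs1, Socs3, Il4, Il21, Ifng, Jak3 and Jchain were added after values were seen. The members and lists were chosen with earlier results of these data known. Alternatives changed the block, filter, scaling, probe sets, weights, prior, groups and arrays in the fit. Some listed genes are not reported here.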

Additional observations from a re-analysis of the deposited data

Results flagged for a closer look

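Il6st was marked because its LZ minus DZ difference went in opposite directions at the 2 affinities in every matched set: negative in 3 of 3 at high and positive in 3 of 3 at low affinity. The interaction of zone and affinity was -1.14 ± 0.32 on the log2 scale, with group means of 5.91 in LZ_high, 6.10 in LZ_low, 6.46 in DZ_high and 5.51 in DZ_low. It had an unadjusted p of 0.00393 and an adjusted p of 1 by limma, so the difference did not pass over all genes. Without 1 array it lay between -1.30 and -0.91. The Il6st values of the LZ_high array of set 3 and the DZ_low arrays of sets 2 and 3 were below the array median.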

How the results depend on the processing

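With matched set as a replicate block, 1 member (Ifngr2) was called in LZ minus DZ and 135 genes in all, with 9 at high and 25 at low affinity; the block changed no other call of a member. After quantile normalization 1 member (Ifngr2) and 80 genes passed in LZ minus DZ and 7 genes at low affinity, and Il6st turned to -0.0018. With array weights 2 members (Ifngr1 and Ifngr2) and 327 genes passed in LZ minus DZ, 146 genes at high and 40 at low affinity and 103 in high minus low affinity in LZ; Il6st turned to -0.0062 in LZ minus DZ, Il9r to 0.12 in the LZ and Ifngr1 to -0.014 in the DZ affinity difference, and Ifngr2 to -0.094 in the interaction. Of the other named genes, Tgfbr2 (adjusted p = 0.0497 by limma), Tgfbr1 (0.0381) and Cxcr4 (0.0132) also passed in LZ minus DZ with array weights. In high minus low affinity in LZ, Ciita (0.0408) and Fcer2a (0.0251) passed with these weights. Array median centring left 28 genes in LZ minus DZ, and fitting only the groups compared left 0 genes at high and 0 at low affinity. Without matched set 3 (added after seeing the data) 87 genes passed in LZ minus DZ, 95 with the block; Il10ra turned to 0.23 in LZ minus DZ at high affinity, Il6st to 0.028 and Socs4 to 0.018 in the LZ affinity difference, and Il21r to 0.014 and Ifngr2 to -0.091 in the interaction, with and without the block. Without 1 array the genes called ranged from 12 (without DZ_low replicate 1) to 67 (without LZ_high replicate 3) in LZ minus DZ, 2 to 5 at high and 0 to 5 at low affinity and 0 to 1 in the DZ affinity difference; no member was called in any of the 12 fits. Values changed sign in those fits as follows: in LZ minus DZ Il6st (-0.079 to 0.13) and Ctf1 (-0.0087 to 0.12); at high affinity Il21r (-0.12 to 0.59) and Il10ra (-0.34 to 0.27); at low affinity Il6ra (-0.17 to 0.060); in the LZ affinity difference Il6st (-0.35 to 0.038), Il9r (-0.31 to 0.024), Socs4 (-1.82 to 0.12) and Il13 (-0.19 to 0.075); in the DZ affinity difference Il21r (-0.54 to 0.17), Il6ra (-0.0013 to 0.15), Il9r (-0.30 to 0.0086) and Ifngr1 (-0.088 to 0.18); in the interaction Il21r (-0.62 to 0.090), Il4ra (-0.39 to 0.26), Il9r (-0.14 to 0.20) and Ifngr2 (-0.14 to 0.26). The causes were not tested.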

Other observations

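Among 11205 other tested genes, the 3 whose values over the 12 arrays were most like those of each member were taken by Pearson r after the mean of each matched set was removed; these are descriptions of arrays that share zones and sets. For Ifngr2 they were Ffar2 (0.971), the integrin beta 1 gene Itgb1 (0.965) and Rad17 (0.965), and for Ifngr1 Tmem123 (0.948), Rab30 (0.948) and Rraga (0.944). For Il4ra they were Zfp608 (0.965), Ablim1 (0.959) and Tut7 (0.956), and for Il21r Sgk3 (0.973), Wdr11 (0.970) and Gripap1 (0.962). For Il6st they were Tsc22d2 (0.945), Itm2c (0.929) and Ganab (0.921), and for Il10ra Itpr3 (0.981), Extl3 (0.972) and Sox5 (0.969). The closest genes were less alike for Il6ra (Mapk13, 0.883; Nr2f6, 0.874; Mypop, 0.853) and Il9r (Pde4a, 0.870; Nbeal2, 0.855; Tnn, 0.836). Without removal of set means the r of Ifngr1 with Rab30 was 0.894, while that of Il21r with Sgk3 was 0.022 and that of Il4ra with Tut7 was 0.070. For Il6st it was 0.845 with Tsc22d2 and 0.0036 with Ganab.

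In the RefSeq gene order of GRCm38.p6, used for order only, Ifngr2 lies next to Ifnar1, a type I interferon receptor gene, and Il4ra lies between Nsmce1 and Il21r. Ifnar1 was at 0.16 ± 0.14 in LZ minus DZ (adjusted p = 0.999), and Nsmce1 at -0.03 ± 0.11. Gtf3c1, on the other side of Il21r, was at -0.11 ± 0.17. These neighbours were chosen for their position after the values of the members were known, and differences between neighbours were not tested.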
